A study of Mus musculus with 9 samples.

Results

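The regulators of G protein signaling (RGS proteins) form a gene family, of which 10 members were followed here, namely Rgs1, Rgs2, Rgs3, Rgs4, Rgs5, Rgs10, Rgs14, Rgs16, Rgs18 and Rgs19. Every probe on the array that is not a control and carries one of these gene names was taken, which gave 17 of 55681 probes and 10 of 34797 gene names. The family was picked because Rgs16 was among the genes with the largest rise in neutrophils from tumor over those from tumor skin. For the members, that comparison is therefore given below as a description with no test, and so is every value of Rgs16 that rests on tumor or tumor skin. Calls in it are printed only for marker genes of other cells. The rule names a rise in tumor, which was read here as tumor over tumor skin. No value of the other members, and none from papilloma or papilloma skin, entered that choice as far as its rule states. The members and the gene lists used below were, however, chosen with earlier results of these data known.

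RGS proteins switch off signals from G protein-coupled receptors. A receptor that binds its ligand, such as a chemokine, loads the alpha subunit of a G protein with GTP and frees it from the beta and gamma subunits, and both parts then act on enzymes and channels. RGS proteins bind the active alpha subunit and speed up its hydrolysis of GTP, which ends the signal. In neutrophils, chemoattractant receptors that couple to Gi drive migration, and the amount of RGS protein in the cell is known to set how strongly and for how long the cell responds.

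The cells came from FVB/N mice in which skin carcinogenesis was induced with DMBA, a mutagen, at 6 and 13 weeks of age and with repeated applications of PMA, a tumor promoter, from week 1 to week 18 to 20. All groups share this treatment, and skin of untreated mice is not among them. Gr-1 bright neutrophils were sorted to a purity above 98% from skin beside papillomas (papilloma skin, 2 arrays), from skin beside carcinomas (tumor skin, 2 arrays), from papillomas (papilloma, 3 arrays) and from carcinomas (tumor, 2 arrays). The neutrophils for an array were purified from pooled tissue of several mice, and the arrays of a group were biological replicates per the methods. The p-values thus measure the spread between pools as it stands in the deposited values. If these hold the ComBat step that the methods name, part of that spread was already removed. The main fit does not account for this, so its p-values may be too small. Papillomas and carcinomas were digested with collagenase IV, dispase II and DNase I, and surrounding skin with collagenase IV alone. In each comparison of lesion with skin, tissue and digestion therefore cannot be told apart. Labeling was with Cy3 alone, on Agilent mouse arrays. In such bulk samples, a change in the number of cells of a type cannot be told apart from a change in the RNA per cell.

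Levels are log2 values of the table that the authors deposited, unless the scanner files are named. Changes were tested with limma over all 55681 probes with Benjamini-Hochberg adjustment, and a probe was called upregulated or downregulated if its adjusted p did not exceed 0.05, its log2 change was 1 or more in size and its log2 level averaged 6 or more over the arrays. Of the 17 probes, 15 reached that level. Several arrays stood apart. In the scanner files 90.7% to 95% of spots were well above background on papilloma skin 1, tumor skin 1 and tumor 1, against 44.2% to 64.2% on the other 6 arrays. The slope of the spike-in controls was 0.68, 0.88 and 0.89 on these 3 arrays, against 1.04 to 1.06 on the other 6. The Spearman correlation of the table's column for papilloma skin 1 was 0.587 with its own scanner file and 0.923 with that of tumor 2, and for the column of tumor 1 these values were 0.825 and 0.946. The columns of papilloma 2 and papilloma 3 were each closest to the file of the other. Results are therefore also given without papilloma skin 1 and tumor 1, and from the scanner files, which were quantile normalized and corrected for slide with ComBat. The fit on these scanner values likewise takes no account of the spread that ComBat removed, so its p-values may also be too small. The 9 arrays lay on 3 slides, of which the first held papilloma skin 1, tumor skin 1, papilloma 1 and tumor 1, the second papilloma skin 2, papilloma 2 and tumor 2, and the third tumor skin 2 and papilloma 3. Slides are those of the scanner files. Differences within a slide from the table therefore rest on columns, those of papilloma skin 1 and papilloma 2, whose closest file was another one. All 12 neutrophil markers were well above background on all arrays, and the log2 of their summed level was 19.95 to 20.37.

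Each probe reads 60 bases of a transcript. The first 30 bases of the probes on which the results turn are shown, as printed on the array and with positions in the mm9 genome build of the scanner files, since for Rgs3 the result depends on which stretch of the gene is read. Whether these stretches are coding or untranslated was not analysed here.
Rgs16, probe A_51_P249286, chr1:155592244-155592303, plus strand: gagagaactcttttaagtataatattgtgt
Rgs1, probe A_51_P260683, chr1:146091962-146092021, minus strand: cccttggataaccagtccaaaagtatatag
Rgs5, probe A_52_P136782, chr1:171623021-171623080, plus strand: agagtaccgctgtgttatctggacattctc
Rgs4, probe A_55_P2026738, chr1:171672488-171672547, minus strand: tcatgaactgcaaagccctctttggttttc
Rgs3, probe A_55_P2027117, chr4:62320777-62320836, plus strand: ggagctggaattatacagaccttctgagaa
Rgs3, probe A_55_P2027102, chr4:62363993-62364052, plus strand: gccctctggccacacagaaatgagtgctga
Rgs18, probe A_52_P541161, chr1:146600137-146600196, minus strand: tgcttgaacgatgaagatggcatactttca

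In papilloma over papilloma skin, which shares no array with the choice of Rgs16 although the 4 groups share 1 estimate of the spread, 5 probes of 5 genes were upregulated, and 1 probe was downregulated. Rgs16, Rgs1, Rgs5, Rgs4 and 1 probe of Rgs3 rose, and Rgs18 fell. Among all probes, 2.18% were called higher and 1% lower. The groups did not overlap for 6 probes that were higher and 5 that were lower in papilloma, against 19.8% and 17.8% of all probes. The median log2 change was 0.06 over the 17 probes and -0.01 over all probes, and members moved in both directions. The scanner files gave 4 probes called higher and 1 lower, against 5.37% and 1.82% of all probes. These were not all the same probes, with Rgs16, Rgs1, Rgs5 and Rgs10 called higher and Rgs14 lower. Rgs4, Rgs3 and Rgs18 were not called there. With slide as a term or no slide correction in place of ComBat, the scanner files gave 0 and 0, against 0% of all probes. Without papilloma skin 1 and tumor 1, the table gave 5 and 0, against 1.2% and 0.629%.

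**Figure D1:**
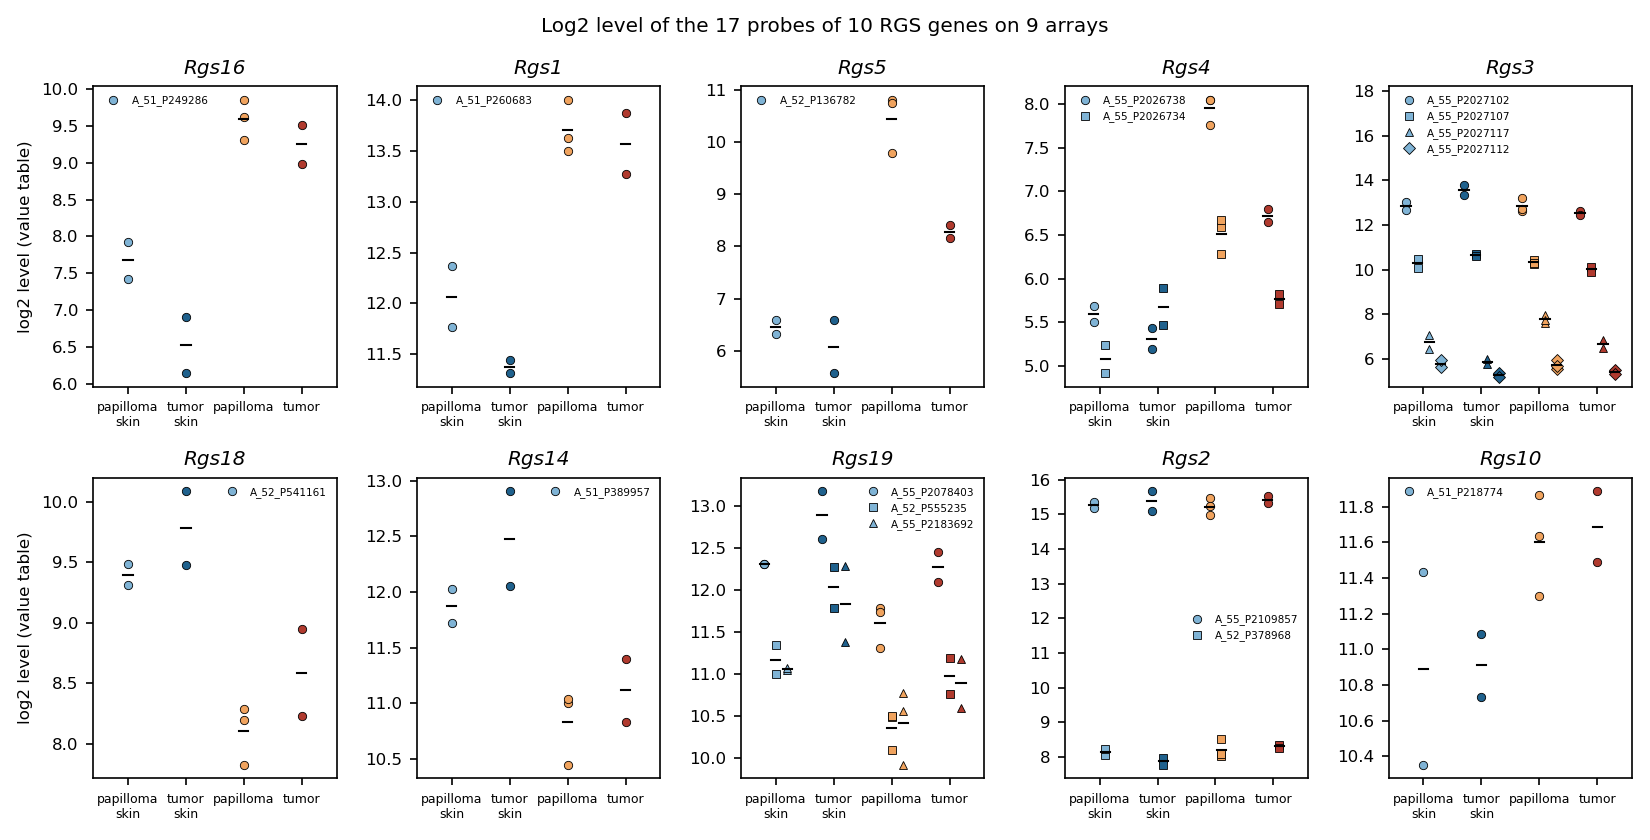
Log2 level in the deposited table (vertical axis) of every probe of the 10 genes on each of the 9 arrays, by group; each point is 1 array, marker shapes are probes of 1 gene, and short lines are group means. The vertical axes differ between panels and do not start at 0. Rgs16, Rgs1 and Rgs10 lay at like levels in papilloma and tumor, Rgs5 and Rgs4 were highest in papilloma, and Rgs18, Rgs14 and Rgs19 were highest in tumor skin.

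Rgs16, an RGS protein that acts on Gi and Gq alpha subunits and is induced in activated leukocytes, had log2 levels of 7.92 and 7.43 in papilloma skin and of 9.86, 9.30 and 9.62 in papilloma. It had 6.15 and 6.91 in tumor skin and 8.98 and 9.52 in tumor. All 5 lesion arrays were above all 4 skin arrays, papilloma and tumor overlapped, and tumor skin was below papilloma skin on each array, although the skin groups overlapped in the scanner files. The log2 change in papilloma over papilloma skin was 1.92 (SE 0.29, limma adjusted p = 0.0079), and the difference was 1.93 within the first slide and 1.88 within the second. Its signal was well above background on all 9 arrays. Tumor exceeded tumor skin by 2.72 on the log2 scale, which is the value the family was picked for, and tumor skin lay 1.15 below papilloma skin. From the scanner files the log2 change in papilloma was 3.21 (SE 0.56, limma adjusted p = 0.016) and the difference in tumor was 4.24. Levels there were 5.54 in papilloma skin and 9.99 in papilloma on the first slide, and 6.91 and 9.33 on the second. In the scanner files with slide as a term or with no slide correction, the change was 3.19 and 3.44 (limma adjusted p = 0.38 and 0.44), not called. In the table without papilloma skin 1 and tumor 1, the change in papilloma was 2.16. The call was lost without papilloma skin 2 (log2 change 1.67, limma adjusted p = 0.065) and with slide as a term in the fit (1.79, adjusted p = 0.060).

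Rgs1, which dampens chemokine receptor signaling in leukocytes, behaved alike at a far higher array signal. Its log2 levels were 12.36 and 11.77 in papilloma skin, 11.44 and 11.31 in tumor skin, 13.49, 14.003 and 13.63 in papilloma, and 13.27 and 13.88 in tumor. Every lesion array was above every skin array, papilloma and tumor overlapped, and the tumor skin arrays were the lowest. In the scanner files the skin groups stood the other way round, with 11.34 and 10.89 in tumor skin above 8.91 and 10.71 in papilloma skin. The log2 change in papilloma over papilloma skin was 1.64 (SE 0.25, limma adjusted p = 0.0084), with 1.13 and 2.23 within the 2 slides that held both groups. Tumor exceeded tumor skin by 2.19 on the log2 scale, given with no test. Between tumor and papilloma the log2 change was -0.14 (SE 0.25, limma adjusted p = 0.83), which was not called. From the scanner files the change in papilloma was 3.47 (limma adjusted p = 0.011). In the scanner files with slide as a term or with no slide correction, it was 3.40 and 3.66 (limma adjusted p = 0.35 and 0.46), not called. In the table without papilloma skin 1 and tumor 1, the change in papilloma was 1.94. The call was lost without papilloma skin 2 (log2 change 1.35, limma adjusted p = 0.063) and with slide as a term (1.69, adjusted p = 0.056).

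Keratinocyte markers were also higher on the lesion arrays. The log2 sum of 12 of them was 13.36 to 14.56 in papilloma and 13.98 to 15.56 in tumor, against 12.03 to 12.50 in papilloma skin and 11.92 to 12.96 in tumor skin. Of the 12 genes, 3 were upregulated in papilloma over papilloma skin, against 2.43% of all gene names. In tumor over tumor skin 4 were called higher, against 2.75%. All 12 had a change above 0 in both comparisons. All 12 or 11 of them were well above background on each array. The part of these cells in the levels of Rgs16 and Rgs1 was not tested.

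By the rule of highest Pearson correlation over the 9 columns among 5877 genes whose log2 levels averaged 6 or more with an SD of 0.5 or more, the genes most like Rgs16 were Elk3 (r = 0.994), which encodes an ETS-domain transcription factor, Prosc (0.991), Hmga1 (0.991), a chromatin architecture protein, Nudt9 (0.991), an ADP-ribose pyrophosphatase, and C330007P06Rik (0.990). The 9 columns share their groups and lie in a skin and a lesion cluster, so these values describe mainly that division. For Elk3 the log2 level averaged 8.94 in tumor skin, 9.64 in papilloma skin, 10.90 in tumor and 11.12 in papilloma, the same order of groups from tumor skin up to papilloma as Rgs16.

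Rgs5 and Rgs4, neighbors on chromosome 1 whose probes lie 48.6 kb apart, had the largest changes in papilloma among the members in the deposited table, though not in the scanner files, where Rgs1 changed more than Rgs5. Their tumor arrays lay below all papilloma arrays, whereas for Rgs16 and Rgs1 these groups overlapped. Rgs5 is widely used as a marker of pericytes, the contractile cells that wrap small vessels. Its log2 levels were 6.31 and 6.59 in papilloma skin, 6.58 and 5.57 in tumor skin, 9.78, 10.81 and 10.74 in papilloma, and 8.41 and 8.16 in tumor. The papilloma arrays were the highest, the tumor arrays lay between, and the skin groups overlapped. Rgs5 rose in papilloma by 3.99 on the log2 scale (SE 0.37, limma adjusted p = 0.00097), by 3.47 and 4.22 within the slides that held both groups. Tumor exceeded tumor skin by 2.21, given with no test, and tumor lay 2.16 below papilloma (log2 change -2.16, SE 0.37, limma adjusted p = 0.053), which was just not called. Leaving out papilloma 1, tumor skin 1 or tumor skin 2 brought it under the threshold (limma adjusted p = 0.038, 0.029 and 0.029), while it was 0.12 without papilloma 2, 0.22 without papilloma 3, 0.24 without tumor 1, 0.25 without tumor 2, 0.30 with slide as a term and 0.16 in the scanner files. The signal was not well above background on tumor skin 2. From the scanner files the change in papilloma was 3.30 (limma adjusted p = 0.023), and without papilloma skin 1 and tumor 1 it was 3.85 (adjusted p = 0.037).

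Rgs4, known for its roles in the brain, the heart and the vessel wall, was read by a pair of probes. Probe A_55_P2026738 had log2 levels of 5.68 and 5.50 in papilloma skin, 5.43 and 5.19 in tumor skin, 7.76, 8.05 and 8.05 in papilloma, and 6.65 and 6.80 in tumor. No group overlapped another, with papilloma highest and tumor skin lowest. It rose in papilloma by 2.36 on the log2 scale (SE 0.16, limma adjusted p = 0.00026) and was the only member probe called in tumor over papilloma, where it fell by 1.23 on the log2 scale (SE 0.16, limma adjusted p = 0.018), against 0.334% of all probes called lower. That second call was lost in limma without papilloma 2 (adjusted p = 0.062), papilloma 3 (0.11), tumor 1 (0.14) or tumor 2 (0.11), and with slide as a term (0.20). From the scanner files the changes were 4.12 (limma adjusted p = 0.0051) and -2.59 (adjusted p = 0.067), with a mean level under 6 there. With slide as a term or with no slide correction there, the change in papilloma was 4.12 and 4.07 (limma adjusted p = 0.34 and 0.37). In the table without papilloma skin 1 and tumor 1, the changes in papilloma and in tumor over papilloma were 2.45 and -1.16. Probe A_55_P2026734 changed by 1.44 in papilloma (limma adjusted p = 0.0046) but had a mean log2 level of 5.84, under the minimum for a call. Both probes were well above background on all lesion arrays, and in the skin groups only on papilloma skin 1 and tumor skin 1, so the size of these changes rests on a skin level near background.

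Markers of other cells were high on the same arrays. Of 11 markers of pericytes and smooth muscle, 9 were upregulated in papilloma over papilloma skin, against 2.43% of all gene names, and 7 were downregulated in tumor over papilloma, against 0.46%. Pdgfrb, the pericyte growth factor receptor, changed by 3.23 on the log2 scale (limma adjusted p = 9.2e-05), Acta2, smooth muscle actin, by 1.30 (adjusted p = 0.0023) and Kcnj8, a potassium channel subunit of pericytes, by 1.05 (adjusted p = 0.019). The log2 of the summed level of the 11 genes was 13.77 to 13.90 in papilloma and 12.18 to 12.24 in tumor, against 12.21 to 12.57 in papilloma skin and 12.47 to 12.65 in tumor skin. None of the 11 was below background on every array, and 5 to 11 of them were well above background per array. The sums of 12 fibroblast and endothelial markers were 13.72 to 14.74, 13.15 to 13.34, 15.17 to 15.66 and 12.62 to 13.995 in papilloma skin, tumor skin, papilloma and tumor. Both sums were highest in papilloma. In tumor over tumor skin, 3 of the 11 pericyte and smooth muscle genes were called higher, against 2.75% of all gene names, and 0 lower, with a median log2 change of 0.13, while their sum was lower in tumor. The part of these cells in the levels of Rgs5 and Rgs4 was not tested.

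**Figure D2:**
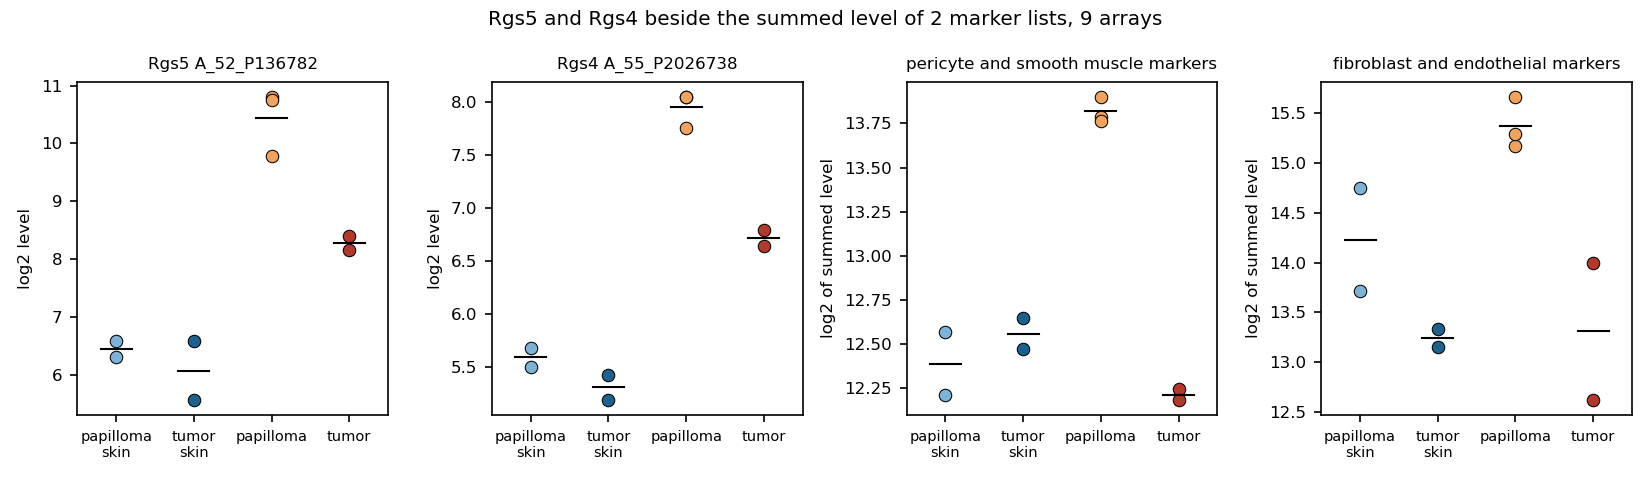
Log2 level of Rgs5 and of the Rgs4 probe A_55_P2026738, and log2 of the summed level of the 11 pericyte and smooth muscle markers and of the 12 fibroblast and endothelial markers (vertical axes, not from 0) in the 4 groups; each point is 1 of 9 arrays and lines are group means. All 4 panels are highest in papilloma. The pericyte sum is 12.18 to 12.24 in tumor and 12.47 to 12.65 in tumor skin, with 3 of its 11 genes called higher in tumor and 0 lower.

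The promoters of 7 of the 10 genes were in the RefSeq table of the GRCm38.p6 build, all except those of Rgs1, Rgs14 and Rgs18. The 250 bases before the start of Rgs5 and Rgs4, which moved together, and of Rgs16 are shown from 5′ to 3′, with matches to the searched motifs on either strand in capitals.
Rgs5, chr1:169655251-169655500, plus strand: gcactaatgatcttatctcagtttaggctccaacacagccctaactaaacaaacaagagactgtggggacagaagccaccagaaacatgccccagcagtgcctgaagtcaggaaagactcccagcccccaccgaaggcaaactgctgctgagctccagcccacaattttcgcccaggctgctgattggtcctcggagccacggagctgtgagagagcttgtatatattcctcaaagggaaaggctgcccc
Rgs4, chr1:169747643-169747892, minus strand: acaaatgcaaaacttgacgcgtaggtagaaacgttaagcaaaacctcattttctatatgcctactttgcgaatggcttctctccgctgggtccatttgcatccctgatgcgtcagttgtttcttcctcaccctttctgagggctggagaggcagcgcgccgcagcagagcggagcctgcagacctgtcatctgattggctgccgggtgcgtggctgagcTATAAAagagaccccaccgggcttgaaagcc
Rgs16, chr1:153740103-153740352, plus strand: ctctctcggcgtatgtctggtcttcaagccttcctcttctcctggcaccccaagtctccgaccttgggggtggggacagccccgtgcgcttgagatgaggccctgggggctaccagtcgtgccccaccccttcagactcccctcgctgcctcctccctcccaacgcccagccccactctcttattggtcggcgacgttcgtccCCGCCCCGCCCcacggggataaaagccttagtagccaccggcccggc
The motifs were TATAAA, the GC box (GGGCGG), the AP-1 site (TGANTCA), the cyclic AMP response element (TGACGTCA), an NF-kappaB site and the CArG box of smooth muscle genes. Rgs4 held TATAAA starting 31 bases before its start, a motif found in 12.37% of all 32851 promoter windows of this length. Rgs16 held a pair of GC boxes on the opposite strand that share 1 base, starting 47 and 42 bases before its start, and 32.74% of all windows held that motif. The Rgs5 window held none of these letters. None of the 3 windows held the AP-1, NF-kappaB, cyclic AMP response or CArG letters, which 6.75%, 1.41%, 1.55% and 1.47% of all windows held.

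Rgs3, which exists in long and short forms from separate start sites, changed by probe. The probe annotated to transcript NM_019492, A_55_P2027117, had log2 levels of 7.05 and 6.42 in papilloma skin, 5.75 and 6.01 in tumor skin, 7.98, 7.62 and 7.75 in papilloma, and 6.48 and 6.85 in tumor. Papilloma was the highest group and tumor skin the lowest, with tumor and papilloma skin overlapping. Its signal was well above background on all lesion arrays, and in the skin groups only on papilloma skin 1 and tumor skin 1. The size of its changes over skin thus rests on a skin level near background. The change in papilloma was 1.04 on the log2 scale (SE 0.22, limma adjusted p = 0.031), and the change in tumor over papilloma was -1.11 (limma adjusted p = 0.086), which was not called. The call in papilloma was lost without papilloma skin 2 (log2 change 0.73, limma adjusted p = 0.17) or any one papilloma array (0.95 to 1.13, adjusted p = 0.059 to 0.099), with slide as a term (1.01, adjusted p = 0.15), and in the scanner files (0.89, adjusted p = 0.18). Without papilloma skin 1 and tumor 1 the change was 1.36 (limma adjusted p = 0.043).

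The probes A_55_P2027102 and A_55_P2027107, annotated to transcript NM_134257, carried the higher signal. Probe A_55_P2027102 had log2 levels of 12.68 and 13.01 in papilloma skin, 13.80 and 13.34 in tumor skin, 12.62, 13.19 and 12.73 in papilloma, and 12.64 and 12.43 in tumor. Papilloma and papilloma skin overlapped, with a log2 change of 0.00 (SE 0.22, limma adjusted p = 0.995), and tumor lay below tumor skin by 1.04, given with no test. Probe A_55_P2027107 showed the same order, with log2 differences of 0.06 in papilloma (limma adjusted p = 0.88) and -0.63 in tumor. Tumor over tumor skin was 0.79 for the NM_019492 probe, so the probes of this gene differed in sign there. The fourth probe, A_55_P2027112, was well above background on 2 of 9 arrays and on none of the skin groups.

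Rgs18, Rgs14 and Rgs19 had lower levels in the lesions. Rgs18, best known from platelets and megakaryocytes and also present in myeloid cells, had log2 levels of 9.31 and 9.48 in papilloma skin, 10.09 and 9.48 in tumor skin, 7.83, 8.20 and 8.29 in papilloma, and 8.95 and 8.23 in tumor. Each skin array was above each lesion array, and papilloma and tumor overlapped. It fell by 1.29 in papilloma on the log2 scale (SE 0.27, limma adjusted p = 0.028), by 1.48 and 1.29 within the slides that held both groups. Tumor was lower than tumor skin, with a log2 difference of -1.20 given with no test. The call in papilloma was lost without papilloma skin 1, papilloma skin 2, papilloma 1, papilloma 2 or papilloma 3 (log2 change -1.39 to -1.16, limma adjusted p = 0.066 to 0.15), without both papilloma skin 1 and tumor 1 (-1.38, adjusted p = 0.089), and with slide as a term (-1.27, adjusted p = 0.14). In the scanner files the log2 change was -0.35 (limma adjusted p = 0.46), and papilloma and papilloma skin overlapped. Levels there were 8.26 in papilloma skin and 8.22 in papilloma on the first slide, and 8.98 and 8.02 on the second.

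Rgs14, a scaffold that binds Gi and Ras proteins, had log2 levels of 11.72 and 12.02 in papilloma skin, 12.91 and 12.05 in tumor skin, 10.45, 11.01 and 11.04 in papilloma, and 11.40 and 10.84 in tumor. Skin and lesion arrays did not overlap. The log2 change in papilloma was -1.04 (SE 0.30, limma adjusted p = 0.093), not called, and -1.36 in the scanner files (adjusted p = 0.041), where it was called. With slide as a term or with no slide correction there, it was -1.35 and -1.46 (limma adjusted p = 0.43 and 0.52), not called. Tumor minus tumor skin was -1.36, given with no test.

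Rgs19, also called GAIP, acts on Gi alpha subunits and was read by 3 probes that differed in the same direction. Their log2 changes in papilloma were -0.81, -0.70 and -0.65 (limma adjusted p = 0.077, 0.11 and 0.32), and their differences in tumor over tumor skin were -1.05, -0.62 and -0.94. For the brightest probe, A_55_P2078403, the levels were 12.31 and 12.31 in papilloma skin, 13.17 and 12.60 in tumor skin, 11.30, 11.78 and 11.73 in papilloma, and 12.44 and 12.10 in tumor. Tumor skin was highest and papilloma lowest, and tumor overlapped papilloma skin. None of the 3 probes was called in papilloma over papilloma skin, tumor over papilloma or tumor skin over papilloma skin.

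Markers of other cells also differed along these arrays. The log2 sum of 12 eosinophil and mast cell markers was 11.51 to 11.68 in papilloma and 11.27 to 11.47 in tumor, against 13.56 to 13.90 in papilloma skin and 12.97 to 13.20 in tumor skin, with 4 of the 12 genes downregulated in papilloma, against 1.17% of all gene names. Epx, eosinophil peroxidase, was well above background on 3 of 9 arrays. The sum of 9 platelet and megakaryocyte markers was 10.09 to 11.08, 9.71 to 10.21, 10.46 to 10.92 and 10.69 to 12.23 in papilloma skin, tumor skin, papilloma and tumor, and none of the 9 was called in papilloma. Pf4, a platelet chemokine, changed by 0.02 (limma adjusted p = 0.99) and Itga2b, the platelet integrin, by -0.98 (adjusted p = 0.27). The sums of 9 T cell markers were 12.62 to 12.82 in the skin groups and 12.05 to 12.42 in the lesions, and those of 8 B cell and plasma cell markers were 13.35 to 15.25 and 9.33 to 10.54. Cd3e of T cells changed by -0.15 (limma adjusted p = 0.83) and Cd79a of B cells by -0.17 (adjusted p = 0.79). Of the neutrophil genes, Ly6g changed by -1.08 (limma adjusted p = 0.072), S100a8 by -0.30 (adjusted p = 0.16) and Csf3r by -0.09 (adjusted p = 0.70), and Mmp8 and Ngp were called lower. The part of these cells in the levels of Rgs18, Rgs14 and Rgs19 was not tested.

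Rgs2, which acts mainly on Gq alpha subunits, gave the highest signal of the family and was called in no comparison. Probe A_55_P2109857 had log2 levels of 15.36 and 15.18 in papilloma skin, 15.67 and 15.11 in tumor skin, 14.97, 15.47 and 15.23 in papilloma, and 15.32 and 15.53 in tumor. All groups overlapped. The change in papilloma was -0.04 (SE 0.21, limma adjusted p = 0.94). Probe A_52_P378968 ranged from 7.78 to 8.53 over the 9 arrays and changed by 0.07 (SE 0.18, limma adjusted p = 0.87). From the scanner files this dimmer probe changed by 2.02 (adjusted p = 0.059).

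Rgs10, a small RGS protein of leukocytes and microglia, had log2 levels of 11.43 and 10.35 in papilloma skin, 10.73 and 11.09 in tumor skin, 11.64, 11.30 and 11.87 in papilloma, and 11.49 and 11.89 in tumor. Tumor was above tumor skin on each array by a mean of 0.78, while papilloma overlapped papilloma skin because of papilloma skin 1. The log2 change in papilloma was 0.71 (SE 0.32, limma adjusted p = 0.26) and was not called. It was 1.25 in the table without papilloma skin 1 and tumor 1, and 2.75 from the scanner files (SE 0.49, limma adjusted p = 0.016), where it was called. With slide as a term or with no slide correction there, it was 2.72 and 2.85 (limma adjusted p = 0.40 and 0.50), not called. From the scanner files of the 6 arrays other than papilloma skin 1, tumor skin 1 and tumor 1, it was 1.29. Papilloma skin 1 was 7.61 in the scanner files, below papilloma skin 2 at 9.24, the reverse of the table.

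On chromosome 1 the probes of Rgs2, Rgs1 and Rgs18 lie close to each other, that of Rgs1 at 244.7 kb and that of Rgs18 at 752.9 kb from that of Rgs2. These neighbors differed in direction in papilloma, with Rgs1 upregulated, Rgs18 downregulated and Rgs2 not called. In all, 6 of the 10 genes lie on chromosome 1, also Rgs16, Rgs5 and Rgs4.

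**Figure D3:**
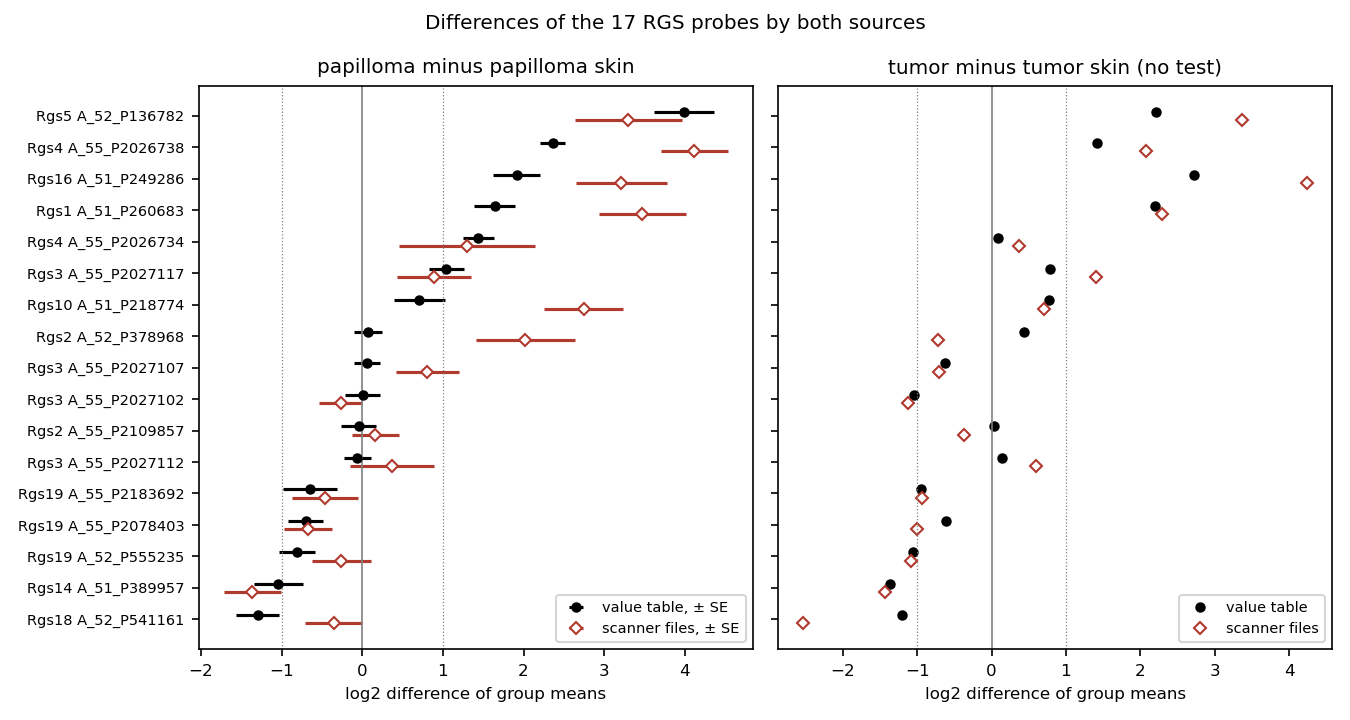
Log2 difference of group means (horizontal axis) for the 17 probes, papilloma minus papilloma skin with SE bars at left and tumor minus tumor skin, with no test, at right; filled circles are the deposited table, open diamonds the scanner files after quantile normalization and ComBat, and dotted lines mark a log2 difference of 1. The sources gave the same sign for 14 of 17 probes at left and 15 at right. At left they lay far apart for Rgs10, the dimmer Rgs2 probe, Rgs1 (1.64 and 3.47), the Rgs4 probe A_55_P2026738 (2.36 and 4.12), Rgs16 (1.92 and 3.21) and Rgs18. At right they did so for Rgs16 (2.72 and 4.24), Rgs18, Rgs5 and the dimmer Rgs2 probe.

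Tumor over tumor skin, the comparison the family was picked on, held 4 probes with a log2 difference of at least 1 and 4 of at most -1 among the 17, against 3.74% and 2.99% of all probes, and nothing is read from these counts. The 4 higher were those of Rgs16 (2.72), Rgs5 (2.21), Rgs1 (2.19) and Rgs4 (1.41), which were also called in papilloma. The 4 lower were those of Rgs14 (-1.36), Rgs18 (-1.20), 1 probe of Rgs19 (-1.05) and the NM_134257 probe A_55_P2027102 of Rgs3 (-1.04). Without tumor skin 1 the 4 higher stayed 4 in number and the 4 lower became 0, and without tumor 2 the lower became 1.

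In tumor over papilloma, which shares its papilloma arrays with the comparison above, the 16 probes other than that of Rgs16 held 0 called higher by limma, against 0.113% of all probes, and the 1 Rgs4 probe called lower. At an unadjusted p under 0.05, limma gave 2 higher and 4 lower, against 7.25% and 7.18% of all probes. On the scanner files it called 0, as of all probes (0%), with 3 at an unadjusted p under 0.05, against 20.7%. In tumor skin over papilloma skin, limma called 0 of the 16 probes higher and 0 lower, against 0.138% and 0.122% of all probes, and 0 on the scanner files. At an unadjusted p under 0.05 there were 4 higher and 3 lower in the table, against 11.5% and 11.2% of all probes, and 8 in the scanner files, against 22.3%. The largest of those log2 changes were 0.86 for a probe of Rgs19 (limma adjusted p = 0.11) and -0.86 for the NM_019492 probe of Rgs3 (adjusted p = 0.11), and Rgs1 changed by -0.69 (adjusted p = 0.20), but by 1.31 in the scanner files, where the sign turned.

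The wider pathway was read from gene values, the median over the probes of a gene name, in papilloma over papilloma skin, where 3.6% of all gene names were called either way and the median log2 change was -0.01. Of 14 other RGS-domain genes, limma called 0, with a median log2 change of -0.01. Among them Rgs8, Rgs13 and Rgs21 were well above background on 4, 3 and 6 of 9 arrays and changed by -0.02, 0.43 and 0.00 (limma adjusted p = 0.96, 0.13 and 1.00), values given because these genes are close relatives of the members, a choice made after they were seen.

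Of 12 alpha subunit genes, 2 were upregulated and 0 downregulated (median log2 change 0.09). Gna13, the G13 alpha subunit, changed by 1.26 (limma adjusted p = 0.0050), from a mean log2 level of 9.57 ± 0.10 (SD, n = 2) in papilloma skin to 10.83 ± 0.24 (SD, n = 3) in papilloma. Gna11, of the Gq family, changed by 1.12 (limma adjusted p = 0.036). Of 15 beta and gamma subunit genes, 2 rose and 1 fell (median 0.09). Gng11, a gamma subunit, rose by 3.05 (limma adjusted p = 0.00023), from 9.09 and 8.88 in papilloma skin to 12.33, 11.67 and 12.10 in papilloma. Gnb4 rose by 1.33 (limma adjusted p = 0.0071), and Gng2, a gamma subunit of leukocytes, fell by 1.32 (adjusted p = 0.0084).

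Of 7 measured receptor kinases and arrestins, 1 fell, Adrbk2, which phosphorylates active receptors, by 1.15 (limma adjusted p = 0.041), and the median was -0.17. Of 20 chemoattractant receptors, 1 rose and 1 fell (median 0.10). Gpr84, a receptor for medium-chain fatty acids, rose by 1.27 (limma adjusted p = 0.046), and Ccr3, the eotaxin receptor that also stands in the eosinophil list, fell by 2.29 (adjusted p = 0.00026). Of 17 effectors, 1 rose and 1 fell (median -0.30). Adcy4, an adenylyl cyclase, rose by 1.42 (limma adjusted p = 0.0056), and Pik3r6, a regulatory subunit of the PI3-kinase driven by beta and gamma subunits, fell by 1.33 (adjusted p = 0.0057). The calls in these lists depended on single arrays, since leaving out either papilloma skin array left 1 alpha subunit and 1 chemoattractant receptor called, leaving out papilloma skin 2 left 1 beta or gamma subunit, and leaving out any papilloma or tumor array left 0 kinases. Without papilloma skin 1 and tumor 1, the calls were 0 for the alpha subunits, 1 for the chemoattractant receptors and 1 for the effectors.

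**Figure D4:**
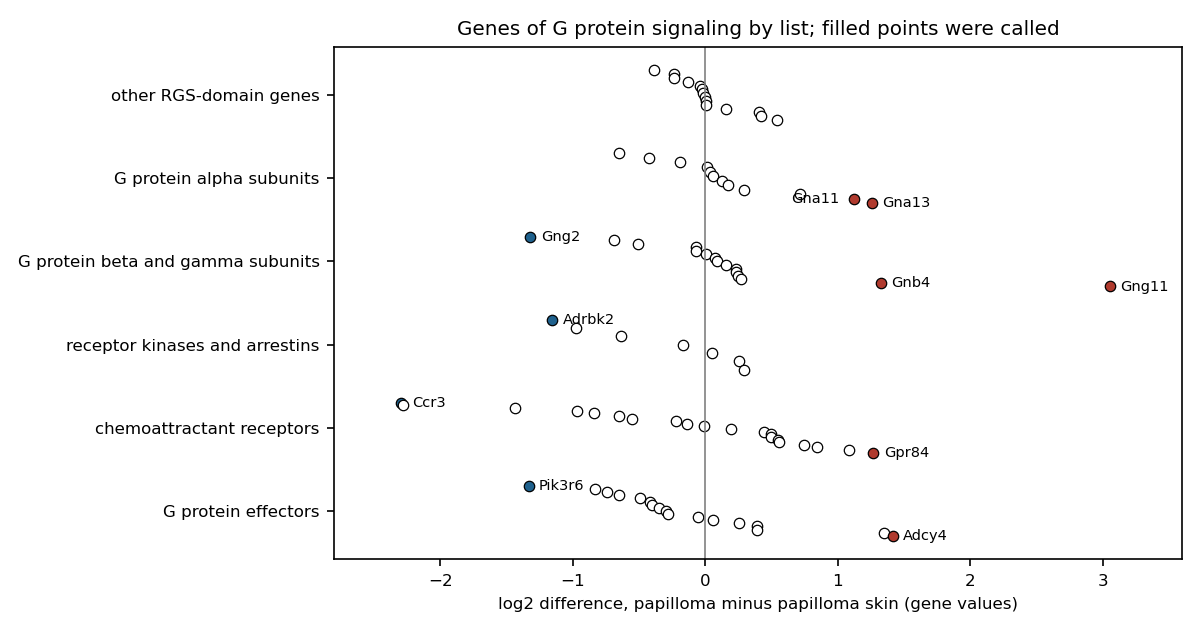
Log2 difference in gene value, papilloma minus papilloma skin (horizontal axis), for the genes of 6 lists of G protein signaling (rows); each point is 1 gene, filled and named where it was called by limma, and open otherwise. The lists hold 0 to 3 called genes each, with Gng11 at 3.05 the farthest right and Ccr3 at -2.29 among the farthest left.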

How the data were processed

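Per array, the authors deposited Agilent Feature Extraction files with fluorescence intensity per spot, which per the file headers was background-subtracted and not scaled between arrays. A table of log2 values per probe was deposited too, and the methods name quantile normalization, ComBat for the chip and limma, without stating which of these the table holds. Column medians of the table were 6.08 to 6.12.

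Groups came from the sample labels. The main fit was limma on the table with group means and 5 residual degrees of freedom. From the intensities, outlier spots were left out, replicate spots averaged, and 55155 probes log2 transformed, quantile normalized and passed through an own ComBat with slide as batch. The fits were tested on simulated data. The number of arrays limits the precision. Alternatives changed the scaling, background correction, slide, replicate block, level filters, unit and arrays. Named were all probes of the members, the called genes of each pathway list (up to 3 per direction), defining markers and the 5 genes most like Rgs16, with Mmp8, Ngp, Epx, Rgs8, Rgs13 and Rgs21 added after their values were seen. The members and lists were chosen with earlier results of these data known. Software was limma 3.58.1 in R 4.3.3 with the package data.table (1.17.8), and numpy 2.4.6, pandas 2.3.3 and, for plots, matplotlib 3.10.9 in Python 3.11.15.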

Additional observations from a re-analysis of the deposited data

How the results depend on the processing

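In papilloma over papilloma skin, the 5 member probes called higher and the 1 called lower became 2 and 0 with slide as a term on the table, where 1.21% and 0.551% of all probes were called, and 2 and 0 with the replicate block. From the scanner files they became 0 and 0 with slide as a term, with no slide correction and on the 6 arrays other than papilloma skin 1, tumor skin 1 and tumor 1, where 0% of all probes were called. The 75th percentile scaling gave 0 lower, as did the table without papilloma skin 1 and tumor 1. Leaving out 1 array at a time gave 2 to 5 higher, the fewest without papilloma skin 2, and 0 to 2 lower. The brighter Rgs2 probe, A_55_P2109857, changed sign in papilloma once, from -0.04 to 1.29 (limma adjusted p = 0.047), under 75th percentile scaling with ComBat.

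In tumor over papilloma, the 1 probe called lower became 0 in all 6 fits on the scanner files, on the table with slide as a term, with the replicate block and without papilloma skin 1 and tumor 1, and 0 to 2 when 1 array was left out. In tumor over tumor skin, leaving out 1 array gave 4 probes higher each time and 0 to 5 lower. In tumor skin over papilloma skin the counts of 0 did not change.

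Called genes per pathway list, with the first value the reported one, were as follows. The share of all gene names called was 3.6%, and 8.01% in the scanner files with quantile normalization, 12.2% with the 75th percentile, 2.2% with slide as a term, 1.26% with the replicate block and 2.35% without papilloma skin 1 and tumor 1. Alpha subunits had 2, and 4 with the 75th percentile, 1 with slide as a term, 0 with the replicate block and 0 without papilloma skin 1 and tumor 1. Beta and gamma subunits had 3, and 1 in the scanner files with quantile normalization. They had 4 with the 75th percentile, 2 with slide as a term and 2 with the replicate block. Kinases and arrestins had 1, and 3 in the scanner files with quantile normalization, 2 with the 75th percentile, 0 with slide as a term and 0 with the replicate block. Chemoattractant receptors had 2, and 5 in the scanner files with quantile normalization, 9 with the 75th percentile, 4 with slide as a term, 1 with the replicate block and 1 without papilloma skin 1 and tumor 1. Effectors had 2, and 1 with slide as a term, 0 with the replicate block and 1 without papilloma skin 1 and tumor 1. Leaving out 1 array gave 1 to 2 alpha subunits, 1 to 3 beta and gamma subunits, 0 to 1 kinases and arrestins, 1 to 2 receptors and 2 to 3 effectors. In the scanner files with quantile normalization, alpha subunits had 3 and effectors 3, and effectors also had 3 with the 75th percentile. The cause of these changes was not tested.

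The replicate numbers were not taken as pairs. Deviations of same-numbered arrays from their group means correlated at 0.16 and 0.53 for papilloma skin with papilloma, but at -0.96 for tumor skin 1 with papilloma 1. In a group of 2 arrays the deviations mirror each other, and the deposited values may already be corrected for slide. These correlations therefore cannot decide whether the arrays were paired. With the replicate block, Rgs16 (limma adjusted p = 0.092) and Rgs1 (0.086) were not called, and Rgs5 (0.027) and Rgs4 (0.015) were.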
